A study of Mus musculus with 96 samples.

Results

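The nuclear receptors RORα (Rora) and REV-ERB compete for the same DNA elements, and the genes described here encode that competitor and the proteins through which REV-ERBs repress transcription in the liver. They are 7 genes: Rora; the corepressor genes Ncor1, Hdac3 and Tbl1xr1; and the genes of the liver transcription factors HNF6 (Onecut1), HNF4α (Hnf4a) and PROX1 (Prox1). The members were matched by gene symbol among the 25095 symbols of the deposited tables, each taken at its transcript with the highest mean. All 7 were above the filter on low values in both tables used for testing, which kept 13326 genes in hepatocytes and 13947 in liver macrophages.

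RORs activate and REV-ERBs repress transcription from shared response elements, the ROREs, so that the balance of both receptors sets the rhythm of clock genes such as Arntl (Bmal1). REV-ERB bound to DNA recruits NCoR1, which in turn activates the histone deacetylase HDAC3, and TBL1XR1 belongs to the same complex. In the liver, REV-ERB and HDAC3 are also brought to genes of lipid metabolism by tissue factors, among them HNF6, HNF4α and PROX1, without a RORE.

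RNA was sequenced from 96 libraries, 48 of hepatocytes and 48 of liver macrophages, in 32 groups of 3 libraries. Per the labels, all mice were male C57BL/6J animals on a high fat and sucrose diet (D12492i) for 4 weeks, and livers were taken at zeitgeber time (ZT, hours after lights on) 4, 10, 16 or 22. The RevDKO line carried floxed alleles of Rev-erbα and Rev-erbβ and the RevScapTKO line also of Scap, the escort of the lipid-regulating SREBP factors, and the virus was given to adult animals. Control mice received an adeno-associated virus encoding GFP. RevDKO, RevScapTKO and ScapKO mice received CRE, by which Rev-erbα/β, both of these with Scap, or Scap alone was to be deleted. The TBG promoter of the virus restricts CRE to hepatocytes, so macrophages kept their alleles and were studied in livers with altered hepatocytes. The labels do not say whether the 3 libraries of a group came from different mice, and p-values measure only the spread between these libraries.

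Levels are in RPKTM, a read count per kilobase of transcript scaled to library size that equals 10 times an RPKM, quantile normalized by the authors within each of 4 tables: the 36 Control, RevDKO and RevScapTKO libraries of either cell type, and the 12 ScapKO libraries of either cell type. Tests were run only within a table, and the sequencing depth is unknown. All differences were taken between values of log2(RPKTM + 1), where changes of weakly expressed genes appear too small. Unless stated otherwise they are averages over the 4 time points, and a gene was called at a limma adjusted p under 0.05 over all genes of the table.

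The label check did not come out as named for the Rev-erb genes. Nr1d1 (Rev-erbα) had medians of 45.9, 91.3 and 131 RPKTM in the hepatocytes of Control, RevDKO and RevScapTKO mice, a difference of 1.55 between RevDKO and Control (limma adjusted p 8.87e-05); a whole-transcript value cannot tell whether floxed exons are gone. Nr1d2 (Rev-erbβ) had hepatocyte medians of 291.9, 405.3, 152.5 and 63.8 RPKTM at ZT4, ZT10, ZT16 and ZT22 in Control, and 402.2, 396.5, 293.6 and 222 in RevDKO. The paper reports a marked reduction of both Rev-erb genes in hepatocytes and derepression of Bmal1. Genes with RORE control that rose in RevDKO, Arntl among them, are given below. Because of the Rev-erb values, RevDKO and RevScapTKO denote libraries labelled so. Scap fell by 1.40 in RevScapTKO against RevDKO hepatocytes (adjusted p 9.77e-09). In the tables of 3 genotypes the summed level of 10 macrophage markers was 9.34 times as high in macrophage as in hepatocyte libraries (medians), and that of 10 hepatocyte markers in macrophage libraries was 17.4% of that in hepatocytes, with none of the markers at 0. The macrophage libraries of Control at ZT22 replicate 1, Control at ZT16 replicate 1 and RevScapTKO at ZT22 replicate 3 stood apart with hepatocyte marker sums of 1628759 to 3215315 RPKTM, the next highest being 161251. Quantile normalization gives each rank 1 fixed value, so such sums move in large steps. The highest Alb values of these groups were 1606981, 802616 and 802616 RPKTM, where each median was 73347. The sums therefore do not measure an amount of hepatocyte RNA. The ScapKO hepatocyte library at ZT22 replicate 1 had a hepatocyte marker sum of 520103 RPKTM against at least 1393706 in the other 11, and the cell type field of the ScapKO hepatocyte libraries names macrophages where their titles name hepatocytes; the titles were followed.

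In hepatocytes the members spanned a wide range of levels. On the per-length scale, means over the 36 libraries were 1576 RPKTM for Hnf4a, 763 for Prox1, 670.3 for Ncor1, 558 for Rora, 234 for Tbl1xr1, 94.6 for Hdac3 and 61.0 for Onecut1. Libraries ranged from 1038 to 2607 for Hnf4a, from 248 to 746 for Rora, and from 2.34 to 305 for Onecut1. The ranges of each gene and the next in this order overlapped. Onecut1 was the member with the widest relative range, and 22.6% of its exonic bases are shared with the same-strand transcript Gm16551, so its counts are uncertain.

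The transcripts lie, in mm9, on chromosome 9 from 69137648 to 69236053 on the plus strand for Rora (NM_001289916), chromosome 11 from 62129928 to 62252017 on the minus strand for Ncor1 (NM_001252313), and chromosome 3 from 21975574 to 22115516 on the plus strand for Tbl1xr1 (NM_030732). Onecut1 (NM_008262) lies on chromosome 9 from 74709728 to 74737454 on the plus strand, Hnf4a (NM_008261) on chromosome 2 from 163372891 to 163398643 on the plus strand, and Prox1 (NM_008937) on chromosome 1 from 191941914 to 191994706 on the minus strand. Hdac3 (NM_010411) is on the minus strand of chromosome 18. In the macrophage table of 3 genotypes Hnf4a was represented by NM_001312906, and in the ScapKO macrophage table Rora by NM_013646, which both extend further upstream.

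**Figure D1:**
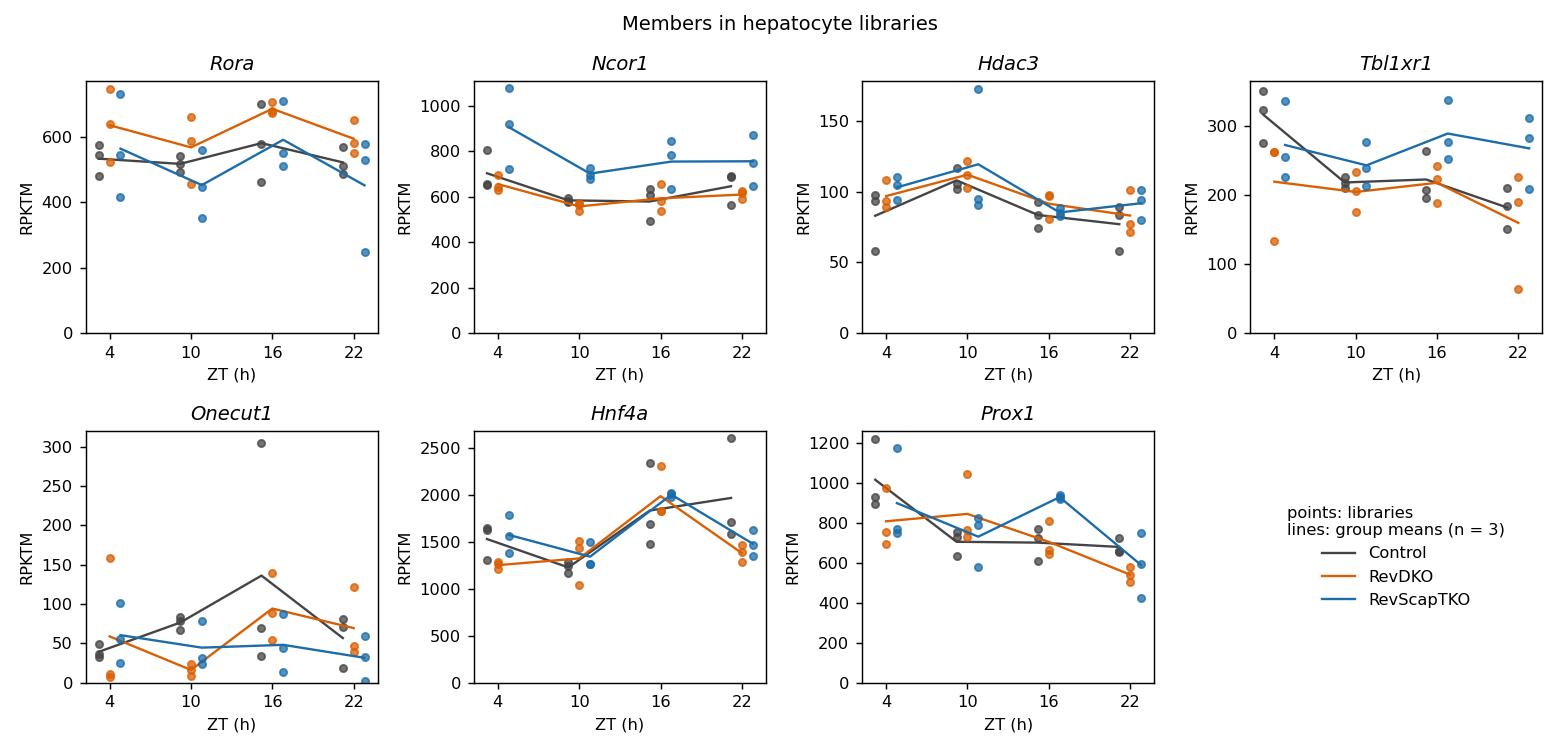
Level of each of the 7 genes in RPKTM (vertical axis, from 0) against zeitgeber time in hours in hepatocyte libraries of Control, RevDKO and RevScapTKO, slightly offset sideways by genotype. Points are libraries and lines join means of 3. Ncor1 in RevScapTKO lies above RevDKO at each time in the mean, whereas the genotypes overlap for most other members.

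Loss of the REV-ERBs, as labelled, left the mean level of every member within the error of the test in hepatocytes. None of the 7 passed in RevDKO against Control by limma, and none had an unadjusted p under 0.05, where 4.43% of all genes tested were called. The difference of Onecut1 had the widest interval.

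Rora measured 462, 530 and 702 RPKTM in Control and 455, 644 and 746 in RevDKO (lowest, median and highest of 12). The means were higher in RevDKO at each of the 4 time points, but the libraries overlapped at every time, and the difference was 0.20 (SE 0.12, limma adjusted p 0.411, 95% interval -0.04 to 0.44).

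Ncor1, the scaffold of the corepressor complex, measured 493, 622 and 805 RPKTM in Control and 537, 602 and 695 in RevDKO (lowest, median, highest), a difference of -0.05 (SE 0.08, adjusted p 0.813). Hdac3, the deacetylase, measured 57.9, 91.2 and 116 against 71.5, 97.0 and 122, a difference of 0.14 (SE 0.11, adjusted p 0.569). Tbl1xr1 measured 151, 214 and 350 against 63.2, 214 and 262, a difference of -0.27 (SE 0.15, adjusted p 0.363). For these 3 genes the ranges of the 12 libraries overlapped, although at ZT10 all Ncor1 values and at ZT4 all Tbl1xr1 values of RevDKO lay below those of Control.

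Hnf4a, a receptor required for hepatocyte identity, measured 1164, 1610 and 2607 RPKTM in Control and 1038, 1411 and 2306 in RevDKO, a difference of -0.13 (SE 0.09, adjusted p 0.498). Prox1, a homeobox factor that binds HNF4α, differed by -0.10 (SE 0.10, adjusted p 0.673), with medians of 728 and 711. Onecut1 measured 18.2, 68.2 and 305 in Control and 7.41, 43.3 and 158 in RevDKO, and its difference of -0.65 had an SE of 0.46 (adjusted p 0.527, 95% interval -1.58 to 0.29). This interval holds a fall of more than 1 log2 unit as well as a small rise.

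At single time points 0 of 28 pairs of a member and a time were called by limma in RevDKO against Control, where 0.640% of all pairs of a gene and a time were called. At an unadjusted p under 0.05 there were 2, Onecut1 at ZT10 and Hnf4a at ZT22. The values that lay apart most were those of Onecut1 at ZT10, at 66.7, 78.4 and 84.1 RPKTM in Control and 9.08, 16.6 and 23.3 in RevDKO. All 3 RevDKO libraries lay below all 3 Control libraries, with a difference of -2.24 (SE 0.92) that did not pass (limma adjusted p 0.431). At ZT4 the RevDKO values of Onecut1 were 7.41, 10.9 and 158, so that 1 library lay far above the other two, and Control measured 32.1, 36.5 and 49.3. Hnf4a at ZT22 was 1587, 1714 and 2607 in Control and 1287, 1392 and 1465 in RevDKO, again without overlap, a difference of -0.48 (adjusted p 0.377).

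**Figure D2:**
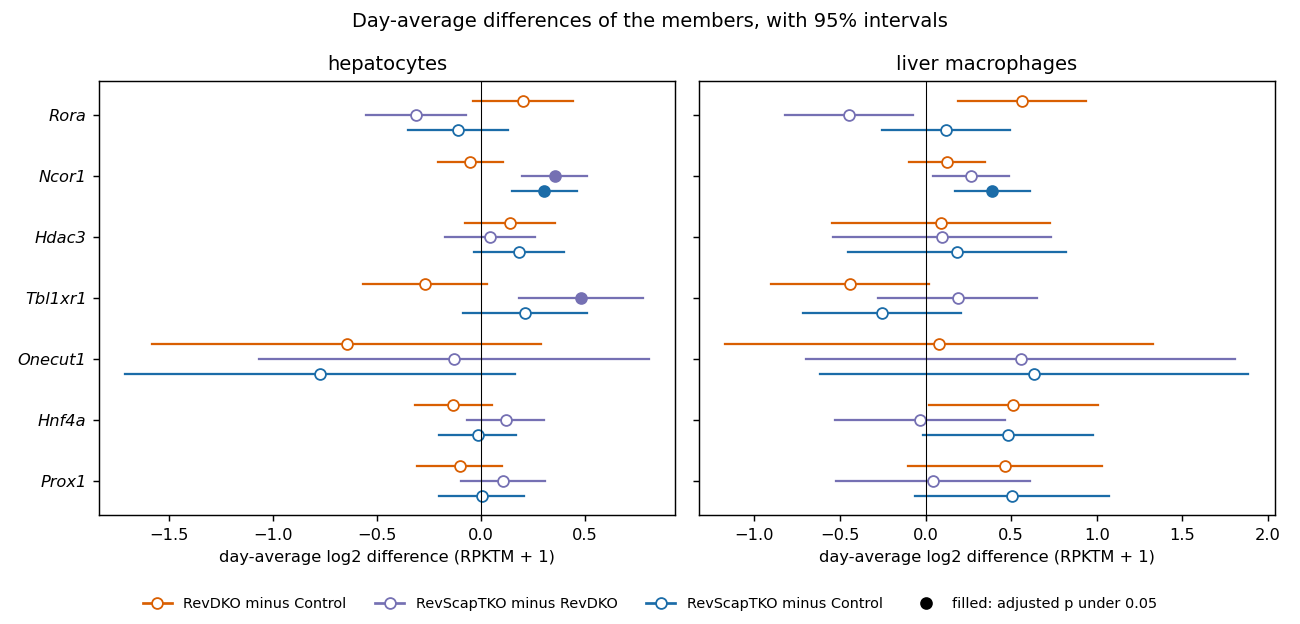
Difference of each of the 7 genes in log2(RPKTM + 1) averaged over 4 time points (horizontal axis) for 3 comparisons in hepatocytes and in liver macrophages; bars are 95% intervals and filled points passed at an adjusted p under 0.05. Filled points are Ncor1 and Tbl1xr1 in RevScapTKO minus RevDKO hepatocytes and Ncor1 in RevScapTKO minus Control in both cell types.

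Loss of Scap on top of the REV-ERBs went with higher levels of 2 corepressor genes in hepatocytes. In RevScapTKO against RevDKO, which shares the RevDKO libraries with the comparison above, 2 of 7 members were called, both higher, where 26.2% of all genes were called and 13.5% were called higher. A count of 2 in 7 is near that share. Measured in RPKTM, Ncor1 was 628, 643 and 695 at ZT4 in RevDKO and 720, 919 and 1079 in RevScapTKO, and at ZT10 537, 562 and 573 against 679, 697 and 728. At ZT16 it was 538, 582 and 656 against 634, 783 and 846, and at ZT22 588, 615 and 625 against 648, 750.0 and 869. The RevScapTKO libraries lay above all RevDKO libraries at ZT4, ZT10 and ZT22, and 1 of 3 fell within the RevDKO range at ZT16. The difference was 0.36 (SE 0.08, limma adjusted p 0.00101), with higher means at 4 of 4 times.

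Tbl1xr1 measured 63.2, 214 and 262 RPKTM in RevDKO and 209, 266 and 338 in RevScapTKO (lowest, median and highest of 12), a difference of 0.48 (SE 0.15, limma adjusted p 0.0155). Its mean was higher at 4 of 4 times, while single libraries overlapped at ZT4, ZT10 and ZT22 and not at ZT16, where RevDKO was 188, 222 and 242 and RevScapTKO 252, 276 and 338. The deacetylase Hdac3 did not share the difference at a detectable size, at 0.04 (SE 0.11, adjusted p 0.793, 95% interval -0.17 to 0.26).

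Rora moved the other way in RevScapTKO, without passing the threshold. It measured 455, 644 and 746 RPKTM in RevDKO and 248, 536 and 732 in RevScapTKO, with lower means at 4 of 4 times and overlap at each of them, and the difference was -0.31 (SE 0.12, limma adjusted p 0.0504). It passed when any of 7 libraries was left out: RevDKO ZT4 replicate 3 or ZT10 replicate 1, or RevScapTKO ZT4 replicate 3, ZT10 replicate 3, ZT16 replicate 2, ZT22 replicate 1 or ZT22 replicate 3, with differences of -0.37 to -0.34 and adjusted p of 0.0204 to 0.0376. Over all 24 libraries left out in turn the difference ran from -0.37 to -0.21, and with a macrophage marker score as a covariate it was -0.18 (adjusted p 0.726). Hnf4a (0.12), Prox1 (0.11) and Onecut1 (-0.13) were not called.

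Against Control, RevScapTKO hepatocytes had 1 of 7 members called, Ncor1, where 35.9% of all genes were called. This comparison shares the Control and the RevScapTKO libraries with those above. Ncor1 had medians of 622 RPKTM in Control and 739 in RevScapTKO, a difference of 0.31 (SE 0.08, limma adjusted p 0.0026), and the libraries were free of overlap at ZT10 only. Tbl1xr1 differed by 0.21 (SE 0.15), Hdac3 by 0.18 (SE 0.11), Rora by -0.11 (SE 0.12), Hnf4a by -0.01 (SE 0.09), Prox1 by 0.00 (SE 0.10) and Onecut1 by -0.77 (SE 0.46). At single time points 0 of 28 pairs were called by limma in RevScapTKO against RevDKO and 5 had an unadjusted p under 0.05, where 3.48% of all pairs of a gene and a time were called. Against Control 0 of 28 were called and 4 had an unadjusted p under 0.05, where 7.52% of all pairs were called.

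Markers of other cell types moved with these comparisons. The summed level of the 10 macrophage markers in hepatocyte libraries ran from 192 to 2534 RPKTM in Control (median 713), from 353 to 1992 in RevDKO (median 888) and from 769 to 4917 in RevScapTKO (median 2445), and none of the 10 was at 0. With a macrophage marker score as a covariate, Ncor1 differed by 0.29 in RevScapTKO against RevDKO (limma adjusted p 0.169) and by 0.23 against Control (adjusted p 0.256), and Tbl1xr1 by 0.37 against RevDKO (adjusted p 0.472). None of these calls then held, and the genes called among all genes dropped from 3498 to 361 and from 4789 to 745. Summed markers of 5 stellate cell genes had medians of 779, 1086 and 2463 RPKTM in Control, RevDKO and RevScapTKO, those of 6 endothelial genes 1022, 1195 and 1921, and those of 4 cholangiocyte genes 18.95, 38.3 and 41.1, with none at 0. The part of these other cell types in the differences of Ncor1 and Tbl1xr1 was not tested. In whole RNA, fewer cells of a type and less RNA per cell cannot be told apart.

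The rest of the NCoR complex and the genes around it were taken from 6 lists. Of 6 genes of the NCoR complex (with Tbl1x, Gps2 and Coro2a beside the members), 0 passed in RevDKO against Control, with a median difference of -0.13 beside -0.01 over all genes. In RevScapTKO against RevDKO, 2 of these 6 rose, Ncor1 and Tbl1xr1, where 13.5% of all genes did, with a median of 0.20 beside -0.03. Of 6 other corepressor genes 0 passed in both of these comparisons, and 1 rose in RevScapTKO against Control, where 35.9% of all genes were called: Nrip1 (0.28), which encodes the corepressor RIP140.

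Of 14 liver-enriched factors, which include Onecut1, Hnf4a and Prox1, 2 were called in RevDKO against Control, where 4.43% of all genes were, and both fell: Cebpb (-0.60, limma adjusted p 0.0273) and Foxa3 (-0.50, adjusted p 0.0383), with a list median of -0.18. In RevScapTKO against RevDKO 2 of 14 fell, near the share of 12.7% of all genes that did. They were Nr0b2 (-0.88), the gene of the bile acid-induced repressor SHP, and Cebpa (-0.41). In RevScapTKO against Control 5 of 14 fell, where 18.7% of all genes did, led by Nr0b2 (-1.18), Cebpb (-0.75), Cebpa (-0.72) and Foxa2 (-0.56), with a median of -0.25 beside -0.04 over all genes.

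Of 7 coactivator genes 0 passed in RevDKO against Control. In RevScapTKO against RevDKO, Ncoa3 (0.34) and Ep300 (0.31) rose and Ppargc1a (-0.69), the gene of PGC-1α, fell, which makes 3 of 7 called where 26.2% of all genes were. Of 10 genes with known RORE control, 6 rose in RevDKO against Control, where 4.43% of all genes were called in either direction, with a median of 0.83 beside -0.01: the activators of the clock Npas2 (4.12) and Arntl (1.83) and the repressors Nfil3 (limma adjusted p 1.19e-08) and Cry1 (1.17) were among those that rose. In RevScapTKO against RevDKO, Fgf21 (1.64) and Cyp7b1 (1.20) rose and G6pc (-0.54) fell. These 3 of 10 called are near the share of 26.2% over all genes. The rise of this list was not confined to hepatocytes. In RevDKO against Control macrophages 3 of 10 rose and 0 fell, where 0.574% of all genes were called. The list median there was 0.93 beside -0.04 over all genes. In RevScapTKO against Control macrophages 3 of 10 rose, where 3.76% of all genes were called, with a median of 0.54 beside -0.04.

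**Figure D3:**
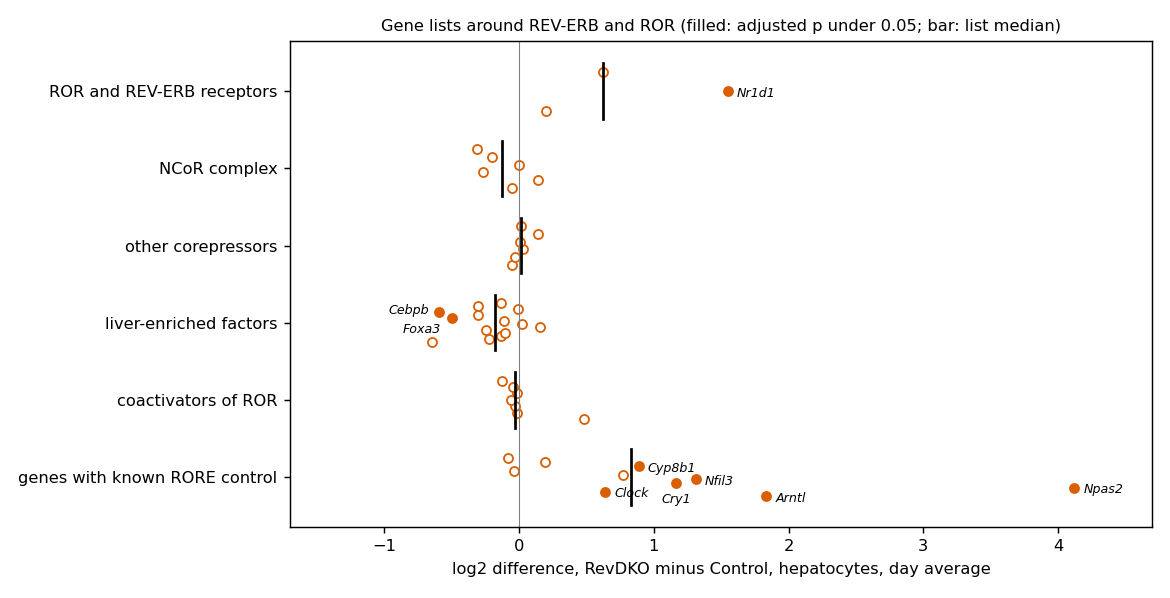
Difference in log2(RPKTM + 1) between RevDKO and Control hepatocytes, averaged over 4 time points (horizontal axis), for the genes of 6 lists (rows); filled and named points passed at an adjusted p under 0.05 and the vertical bar is the list median. In the RORE list 6 genes lie filled to the right, while the NCoR complex, the other corepressors and the coactivators hold no filled point.

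Promoter sequence was read from RefSeq windows of 250 bases before to 50 after the gene start (GRCm38.p6), which exist for 6 of the 7 members, Hdac3 having none. Over 22084 windows of 18385 symbols, both strands were searched for the RORE (AANT followed by AGGTCA, or by GGGTCA), for the receptor core AGGTCA, which is part of the first of these forms, for the E-box CACGTG bound by CLOCK and BMAL1, and for the D-box TTATGTAA bound by NFIL3. These letters stand in the windows of 0.218%, 0.218%, 16.6%, 9.11% and 1.03% of symbols. No window of the members held a RORE, the core or the D-box, and 1, that of Onecut1, held an E-box. The window of Rora lies at the start of NM_013646, and that of the downstream start of the transcript measured in hepatocytes was not searched. The sites below show this match beside those of RORE genes that rose in RevDKO, with the motif in capitals (on the minus strand of the gene, the core reads TGACCT):
Onecut1 E-box, chr9:74861680-74861709, plus strand: cgtcccgtgCACGTGctcactgatcccggg
Arntl RORE, chr7:113207529-113207558, plus strand: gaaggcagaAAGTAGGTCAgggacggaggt
Clock core, chr5:76303601-76303630, minus strand: tttggcctcTGACCTgacagatgacagatc
Nfil3 core, chr13:52981031-52981060, minus strand: gctcggaacTGACCTactaacacacatctc
The Onecut1 E-box starts 232 bases before the gene start and the Arntl RORE 27 bases after it. Only genes with a site are shown, and not every RORE gene that rose held a RORE or a core. The window of Npas2 held none of the motifs and that of Cry1 only an E-box. Arntl and Clock also have other windows, which held none of the motifs. A match is a run of letters and not a bound site.

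Daily patterns of the members were called with JTK_CYCLE, a rank test, with the rule of the study's methods: a best period of 24 h, an adjusted p under 0.05 and a ratio of highest to lowest time point mean over 1.5. Under that rule the series is entered 2 times in a row, so each value is counted 2 times. For every member called rhythmic this gave a smaller p than the series entered once, and such p are too small. For some members not called the p was larger. In Control hepatocytes 2 of 7 members were rhythmic, where 29.0% of all genes were: Tbl1xr1 (adjusted p 0.00141 by the exact JTK_CYCLE test) with the peak at ZT7, and Hnf4a (adjusted p 0.000308, exact) with the peak at ZT22. Tbl1xr1 measured 275, 322 and 350 RPKTM at ZT4, 210, 217 and 226 at ZT10, 196, 207 and 264 at ZT16, and 151, 184 and 210 at ZT22. All ZT4 values lay above those of the other times. A 24 h regression with limma called 0 of 7 in Control (adjusted p 0.210 for Tbl1xr1 and 0.0969 for Hnf4a), where 8.98% of all genes were called. The macrophage marker sum in these libraries also rose with time, with medians of 379, 548, 1287 and 2047 RPKTM at ZT4, ZT10, ZT16 and ZT22. From ZT4 to ZT22 the stellate sum went from 358 to 1518 and the endothelial sum from 458 to 1634. The part of cell makeup in the daily patterns of Tbl1xr1 and Hnf4a was not tested.

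In RevDKO hepatocytes 3 of 7 were rhythmic, where 29.7% of all genes were: Hnf4a with the peak at ZT16, Prox1 at ZT10 and Onecut1 at ZT19. Hnf4a measured 1213, 1264 and 1283 RPKTM at ZT4, 1038, 1431 and 1506 at ZT10, 1827, 1832 and 2306 at ZT16 and 1287, 1392 and 1465 at ZT22, so that all ZT16 values lay above the rest. Prox1 was lowest at ZT22, at 504, 541 and 579, below all values of the other times, the next being 642. The call of Onecut1 was lost when any of 11 of the 12 libraries was left out, all but that of ZT4 replicate 1. That of Prox1 was lost without ZT10 replicate 1 and that of Hnf4a without ZT16 replicate 3. By 24 h regression 0 of 7 were called in RevDKO (limma adjusted p 0.0720 for Hnf4a, 0.0853 for Prox1 and 0.132 for Onecut1), where 5.40% of all genes were. The macrophage marker sum rose with time in RevDKO hepatocyte libraries too, with medians of 533.5, 800, 1012 and 1495 RPKTM from ZT4 to ZT22. Its part in the daily patterns of the members was not tested. In RevScapTKO hepatocytes 0 of 7 were rhythmic by JTK_CYCLE and 0 by the regression, where 20.8% and 0.00% of all genes were.

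With the series entered once, Hnf4a remained rhythmic in Control, where 11.0% of all genes were, and Hnf4a and Prox1 in RevDKO, where 9.25% were. Without Control ZT22 replicate 2 Hnf4a was not called in Control. The difference in rhythm between genotypes was tested by itself with limma, and 0 of 7 members passed in each of the 3 comparisons, Hnf4a having an unadjusted p under 0.05 in RevDKO against Control and Onecut1 in RevScapTKO against RevDKO. In RevDKO against Control 0.203% of all genes passed this test (27 by limma, and 654 at an unadjusted p under 0.05). In RevScapTKO against RevDKO 0 genes (0.00%) passed by limma, 674 having an unadjusted p under 0.05, and in RevScapTKO against Control 0.188% passed. The fitted peak of Hnf4a was at 20.6 h in Control and 16.4 h in RevDKO (limma adjusted p 0.949), so a shift of the Hnf4a peak was not detectable.

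In liver macrophages the RPKTM values of the members were lower than in hepatocytes, to unequal degrees. The macrophage median was 9.77% of that in hepatocytes for Rora, 17.7% for Hnf4a, 18.5% for Prox1, 31.8% for Tbl1xr1, 34.7% for Hdac3, 37.0% for Ncor1 and 56.8% for Onecut1. These levels come from tables normalized apart and are a description. Among the genes kept, the mean of Ncor1 stood at percentile 95.3 in hepatocytes and 96.2 in macrophages, and that of Onecut1 at 57.6 and 73.6. The other members ranked lower in macrophages, such as Rora at 94.3 and 76.3. Lower RPKTM in macrophages was thus not a lower rank for every member. The hepatocyte libraries all lay above the macrophage libraries for Rora, Ncor1, Hdac3, Hnf4a and Prox1, and overlapped them for Tbl1xr1 and Onecut1. How many of all genes lay apart in this way was not counted. Ncor1 lay apart although its rank was higher in macrophages, so the lack of overlap says nothing particular about the members. The hepatocyte marker sum, which moves in large steps of rank, was at 17.4%. Over the 36 macrophage libraries its correlation was -0.24 with Rora, -0.15 with Hnf4a and -0.47 with Prox1. This is a description over libraries that share genotype and time.

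Rora was the member with the largest day-average difference from Control in RevDKO macrophages. It measured 36.5, 38.3 and 48.3 RPKTM at ZT10 in Control and 63.6, 68.2 and 76.3 in RevDKO, and at ZT16 37.0, 40.4 and 61.8 against 72.1, 102 and 103. The values of RevDKO lay above all values of Control at both times and overlapped them at ZT4 and ZT22. The day-average difference was 0.57 (SE 0.18, unadjusted limma p 0.00419), and it did not pass over all genes (adjusted p 0.172). Of the 7 members 0 were called by limma and 2, Rora and Hnf4a, had an unadjusted p under 0.05, where 0.574% of all genes were called. Of the 28 pairs of a member and a time 0 were called and 6 had an unadjusted p under 0.05, where 0.0323% of all pairs were called. In this comparison Hnf4a differed by 0.51 (limma adjusted p 0.345), Prox1 by 0.46 (adjusted p 0.463) and Tbl1xr1 by -0.44 (adjusted p 0.382). Ncor1 differed by 0.13, Hdac3 by 0.09 and Onecut1 by 0.08. Other members also lay apart at single times. All RevDKO values lay above all Control values for Ncor1 at ZT4, ZT10 and ZT16 and for Hnf4a and Prox1 at ZT10. For Tbl1xr1 at ZT10 they all lay below. How many of all genes lay apart in this way was not counted.

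Without the Control library at ZT22 replicate 3, whose 106.7 RPKTM was the highest Rora value in the table, the difference of Rora was 0.68 and passed (limma adjusted p 0.0213). Without the 3 libraries of highest hepatocyte marker sum it was 0.45 (adjusted p 0.460). Marker levels moved with Rora: the macrophage marker sum had a median of 14190 RPKTM in Control (2759 to 26859), 7430 in RevDKO (3231 to 24356) and 7938 in RevScapTKO (4070 to 25920), with none of 10 markers at 0, and over the 36 libraries its correlation with Rora was -0.63, libraries of a group sharing genotype and time. With other members the correlation of this sum was -0.56 for Hnf4a, -0.44 for Prox1 and 0.38 for Tbl1xr1. Of the 14 liver-enriched factors 0 were called in RevDKO against Control macrophages, where 0.574% of all genes were. Their median difference was 0.49 beside -0.04 over all genes, so higher values were not particular to Hnf4a and Prox1. The part of cell makeup in the values of Rora, Hnf4a and Prox1 was not tested.

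**Figure D4:**
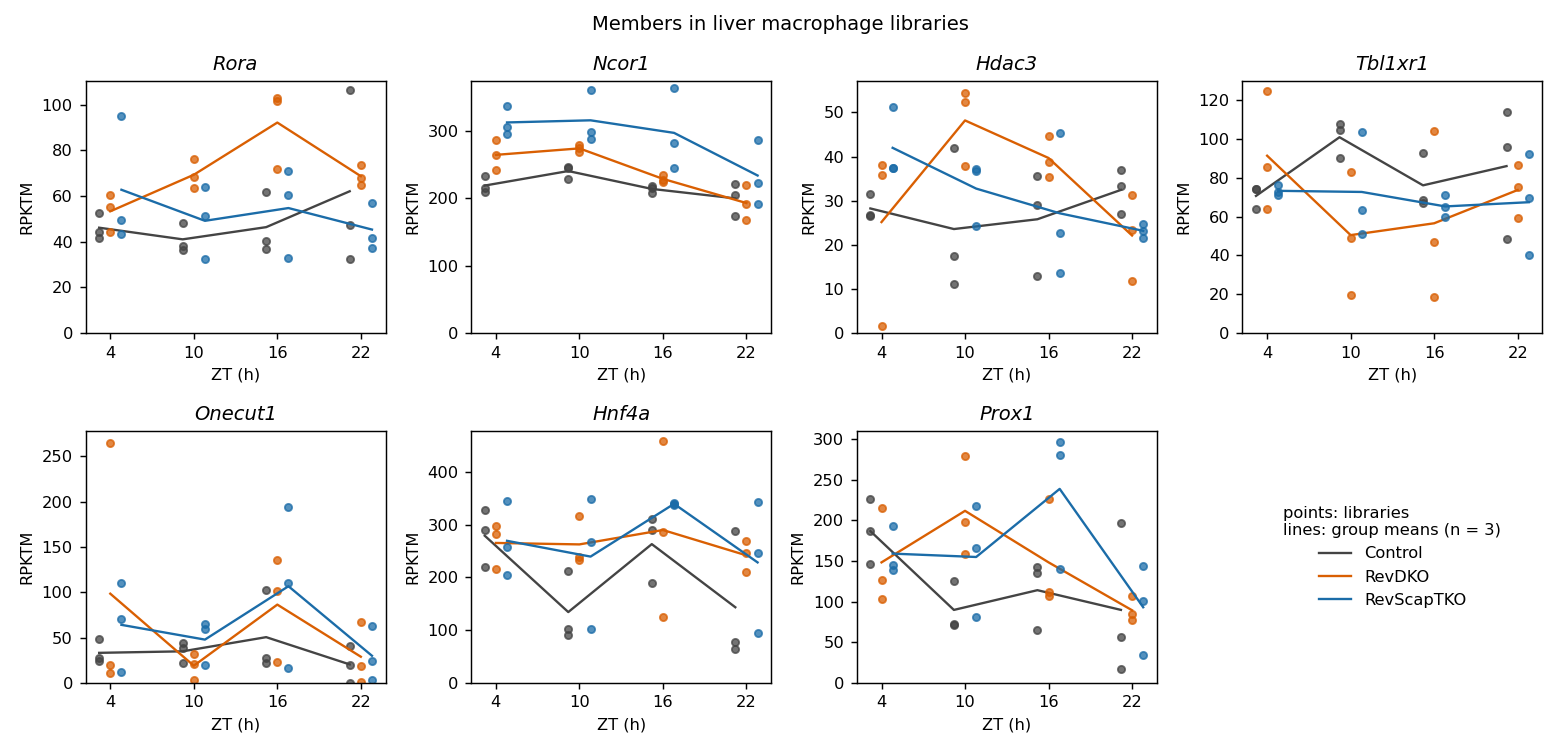
Level of each of the 7 genes in RPKTM (vertical axis, from 0) against zeitgeber time in hours in liver macrophage libraries of Control, RevDKO and RevScapTKO, slightly offset sideways by genotype. Points are libraries and lines join means of 3. Rora in RevDKO lies above Control at ZT10 and ZT16, and Ncor1 in RevScapTKO lies above both other genotypes at ZT4, ZT10 and ZT16.

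Ncor1 was the only member called in macrophages in these 3 comparisons. In RevScapTKO against Control it was 296, 306 and 337 RPKTM at ZT4 against 210, 215 and 233, and at ZT10 288, 299 and 361 against 229, 246 and 247. At ZT16 it was 246, 282 and 365 against 209, 216 and 218, and at ZT22 192, 223 and 287 against 174, 205 and 221. All RevScapTKO values lay above all Control values at ZT4, ZT10 and ZT16 and overlapped them at ZT22. The difference was 0.39 (SE 0.11, limma adjusted p 0.035), the 1 call in 7, where 3.76% of all genes were called. RevDKO measured 243, 264 and 287 at ZT4, 270, 275 and 279 at ZT10, 225, 228 and 235 at ZT16 and 168, 191 and 221 at ZT22, with a mean between those of the other genotypes at all times but ZT22, where it was the lowest.

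The Ncor1 call in macrophages was close to the threshold. Leaving out any of 11 of the 24 libraries ended it: Control ZT4 replicate 1, ZT10 replicates 1 and 2 or ZT16 replicates 1, 2 and 3, or RevScapTKO ZT4 replicate 3, ZT10 replicate 3, ZT16 replicates 2 and 3 or ZT22 replicate 3, with differences of 0.35 to 0.40 and adjusted p of 0.0521 to 0.0849. Without the 3 libraries of highest hepatocyte marker sum it was 0.37 (limma adjusted p 0.0624). In RevScapTKO against RevDKO 0 of 7 were called by limma and 2 had an unadjusted p under 0.05, where 1.23% of all genes were called higher and 1.78% lower: Ncor1 differed by 0.26 (SE 0.11, adjusted p 0.168) and Rora by -0.45 (SE 0.18, adjusted p 0.169). Of the 6 genes of the NCoR complex 1 was called in RevScapTKO against Control macrophages, Ncor1. At single time points 0 of 28 pairs were called and 2 had an unadjusted p under 0.05 in either comparison, where 0.210% of all pairs were called against RevDKO and 0.213% against Control.

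In RevDKO macrophages 3 of 7 members were rhythmic, where 28.2% of all genes were: Rora with the peak at ZT16, and Hdac3 and Prox1 at ZT10. Hdac3 measured 1.55, 35.8 and 38.2 RPKTM at ZT4, 37.8, 52.3 and 54.5 at ZT10, 35.4, 38.9 and 44.8 at ZT16 and 11.8, 23.3 and 31.2 at ZT22. Prox1 measured 159, 197 and 279 at ZT10 and 77.2, 84.0 and 106 at ZT22. The macrophage marker sum in RevDKO macrophages also changed with time, with medians of 20079, 15902.5, 5601 and 5411 RPKTM at ZT4, ZT10, ZT16 and ZT22. Over the 36 macrophage libraries its correlation was -0.63 with Rora, -0.44 with Prox1 and -0.15 with Hdac3. The part of cell makeup in these daily patterns was not tested. By 24 h regression 0 of 7 were called (limma adjusted p 0.462 for Rora, 0.501 for Hdac3 and 0.259 for Prox1), where 0.851% of all genes were. With the series entered once, Rora and Prox1 remained, where 5.67% of all genes did; none remained in the other genotypes, where 2.88% (Control) and 2.37% (RevScapTKO) of all genes did. In Control macrophages 0 of 7 were rhythmic by JTK_CYCLE or by 24 h regression, where 20.2% and 0.00% of all genes were, and in RevScapTKO 1 of 7, Hdac3, where 15.4% were by JTK_CYCLE. The Hdac3 call in RevScapTKO was lost by regression (limma adjusted p 0.992), where 0.0239% of all genes were called, and in JTK_CYCLE without any ZT4 library and without ZT16 replicate 1 or 2. In macrophages 0 of 7 passed the test of a difference in rhythm by limma, Hdac3 having an unadjusted p under 0.05 in RevDKO against Control. No gene (0.00%) passed it in any of the 3 comparisons, in which 767, 498 and 238 genes had an unadjusted p under 0.05 in RevDKO against Control, RevScapTKO against RevDKO and RevScapTKO against Control.

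In the ScapKO tables, which hold no Control, Onecut1 and Prox1 had a daily pattern in hepatocytes. Onecut1 was highest at ZT4, at 185, 277 and 286 RPKTM, against 69.1, 71.7 and 86.1 at ZT10, 36.2, 62.3 and 86.3 at ZT16 and 46.5, 78.0 and 124 at ZT22. Prox1 was lowest at ZT4, at 733, 788 and 1206, against 2328, 2415 and 2624 at ZT10, 2049, 2554 and 2715 at ZT16 and 2111, 2624 and 3126 at ZT22. For either gene all 3 ZT4 libraries lay apart from the 9 others, in opposite directions.

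These were the 2 of 7 members called rhythmic, where 19.1% of all genes were: Onecut1 (exact JTK_CYCLE adjusted p 0.00103, peak ZT4, ratio of means 4.04) and Prox1 (exact adjusted p 0.0408, peak ZT16, ratio of means 2.88). With the series entered once 0 of 7 were called, where 4.90% of all genes were. A 24 h regression with limma, which called 1.85% of all genes, called Onecut1 (peak-to-trough 2.06 on the log2 scale, adjusted p 0.0398) and not Prox1 (1.45, adjusted p 0.0864). Both were called without the library at ZT22 replicate 1, whose hepatocyte marker sum was low, and Onecut1 without any single library. The call of Prox1 was lost without any ZT4 library and without ZT10 replicate 1, ZT10 replicate 2 or ZT16 replicate 2. Leaving out ZT22 replicate 2 ended neither call. That library had a macrophage marker sum of 2790 RPKTM, beside at most 1234 in the others. Whether these patterns differ from the other genotypes cannot be tested across tables.

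**Figure D5:**
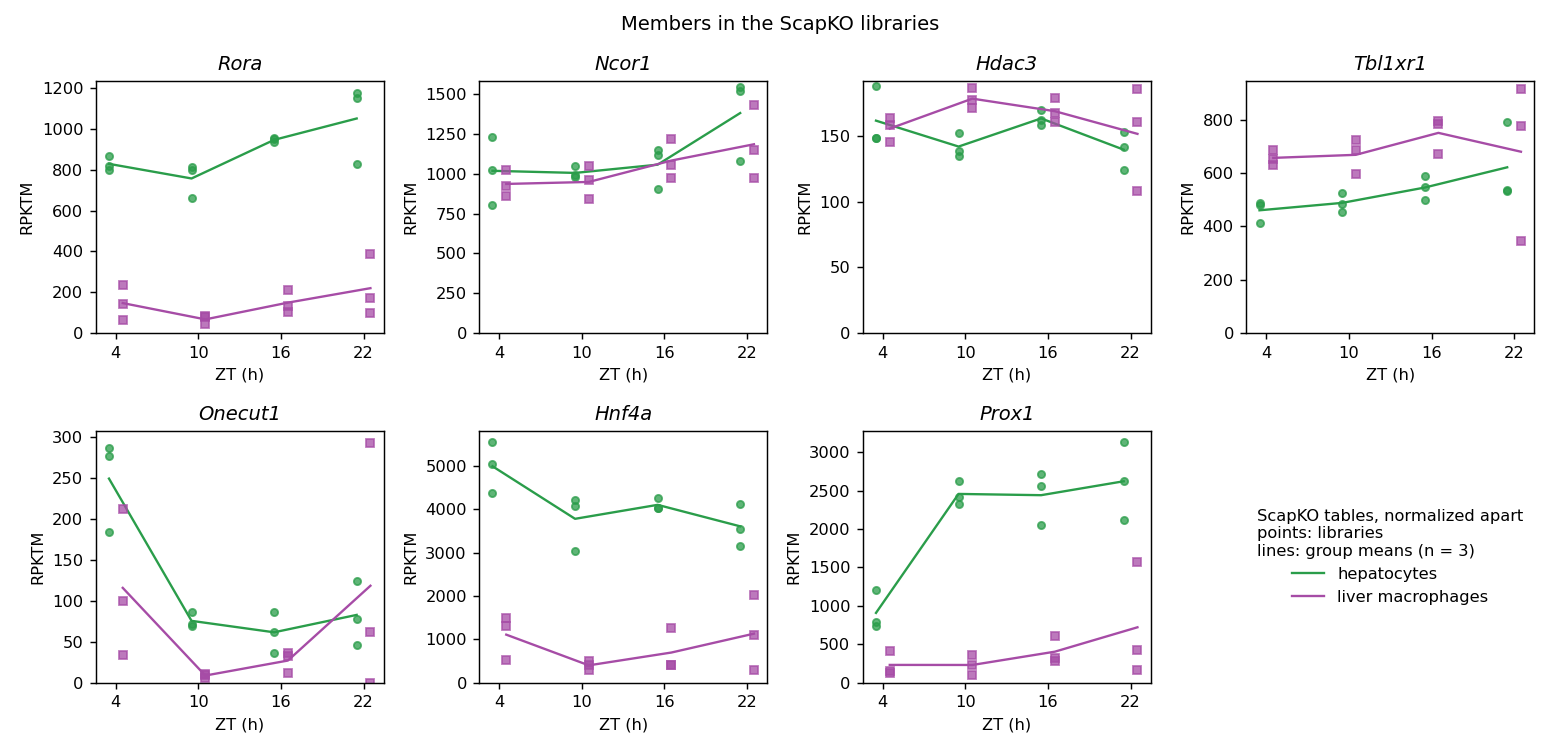
Level of each of the 7 genes in RPKTM (vertical axis, from 0) against zeitgeber time in hours in the ScapKO libraries of hepatocytes and of liver macrophages, which were normalized apart. Points are libraries and lines join means of 3. In hepatocytes Onecut1 is highest and Prox1 lowest at ZT4; Tbl1xr1, Hdac3 and Ncor1 stand at like levels in both cell types.

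Within the ScapKO libraries the corepressor genes had macrophage medians nearer to those in hepatocytes than the other members had. The macrophage median was 93.9% of the hepatocyte median for Ncor1, 110% for Hdac3 and 134% for Tbl1xr1. It was 14.0% for Rora, 12.5% for Hnf4a, 12.7% for Prox1 and 41.0% for Onecut1. The cell types were normalized apart, so these levels are a description and were not compared with the other tables. By rank among the genes kept, Ncor1 stood at percentile 94.6 in ScapKO hepatocytes and 95.4 in ScapKO macrophages. In the tables of 3 genotypes its percentiles were 95.3 and 96.2. In the ScapKO tables the macrophage marker sum was 138 times as high in macrophage as in hepatocyte libraries and the hepatocyte marker sum 4.94% as high. In the tables of 3 genotypes, on another scale, these were 9.34 times and 17.4%.

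Rora was the 1 member of 7 called rhythmic in ScapKO macrophages, where 21.4% of all genes were. It measured 63.1, 144 and 233 RPKTM at ZT4, 42.7, 76.9 and 81.6 at ZT10, 104, 133 and 210 at ZT16 and 97.8, 173 and 389 at ZT22. The hepatocyte marker sum moved with it, with medians of 91792, 38600, 54835 and 99004 RPKTM at these times, and its correlation with Rora over the 12 libraries was 0.87. With the series entered once 0 of 7 were called, where 3.55% of all genes were, and by 24 h regression 0 (limma adjusted p 0.476 for Rora), where 0.00% were. The call was lost without any ZT10 library and without ZT22 replicate 2. The latter stood apart, with a macrophage marker sum of 18334 RPKTM beside at least 65961 in the others. Over the 12 libraries the correlation of the macrophage marker sum with Rora was -0.78. The part of hepatocyte RNA in the Rora values was not tested.

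The genes with the most similar pattern to each member were ranked by Pearson's r over the 12 means of genotype and time in hepatocytes, which share libraries and are a description. Among 13325 genes compared they were Mpzl3 (0.86) and Pikfyve (0.86) for Rora, Adnp (0.97) and Peg3 (0.96) for Ncor1, Ythdc2 (0.91) and Hars2 (0.88) for Hdac3 and Zik1 (0.91) and Eprs (0.89) for Tbl1xr1. For the liver factors they were Irf2bp1 (0.88) and Polg (0.86) for Onecut1, Nploc4 (0.93) and Sec14l4 (0.92) for Hnf4a and Tcf12 (0.92) and Zfp991 (0.91) for Prox1. No member was among the 2 closest genes of another. Between members r was 0.68 for Tbl1xr1 with Prox1, 0.60 for Ncor1 with Tbl1xr1, -0.35 for Rora with Ncor1 and -0.63 for Hnf4a with Hdac3.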

How the data were processed

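Libraries were made from rRNA-depleted RNA with a stranded kit. The authors used STAR for alignment to mm9 and HOMER for counting over RefSeq transcripts (versions, and whether counting used the strand, are not given in the sources used here). The deposited values are an RPKM times 10 (RPKTM), quantile normalized by the authors in 4 tables. The extract protocol in the labels names liver tissue, endothelial and Kupffer cells; the study's methods name isolated hepatocytes and macrophages.

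For each symbol the transcript of highest mean in a table was used. Groups followed the labels. Genes over 5 RPKTM in at least 3 libraries were fitted with limma 3.58.1 (R 4.3.3, trend) on log2(RPKTM + 1), with 1 mean per genotype and time in the 36 libraries of a cell type, and adjusted by Benjamini and Hochberg over all genes. Differences in rhythm were tested on 24 h cosine and sine terms. JTK_CYCLE was written anew (Python 3.11.15, numpy 2.4.6, pandas 2.3.3), with periods of 18 and 24 h and the exact p multiplied by 7 patterns; at least 2 libraries had to exceed 5 RPKTM. Both were tested on simulated data. Exon overlaps are from GENCODE vM1. Figures used matplotlib 3.10.9. The depth per library is unknown, so precision rests on the spread between libraries.

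The members, lists and tests were chosen with earlier results of these data known. All 7 members are named. Of the lists, the genes called in a comparison were named, at most 4 per list, ordered by size, and per member the 2 genes of highest Pearson r. In the lists, 2 genes are not reported here, and counts and medians of lists are without them. Alternatives were pseudocounts of 0.1 and 5, no filter, summed transcripts, a replicate block, a marker score as covariate, only the 2 genotypes compared, and each library left out; JTK_CYCLE was also run with the series entered once and replaced by a 24 h regression. Leaving out 3 macrophage libraries was added after seeing the data.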

Additional observations from a re-analysis of the deposited data

How the results depend on the processing

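For the 42 member differences, 1244 of 1323 recomputed values kept direction and side of the threshold, and of the 4 called none reversed. With a macrophage marker score as covariate 0 members were called in RevScapTKO against RevDKO or Control hepatocytes; the cause was not tested. Without a filter, Ncor1 gave 1 time point call in RevScapTKO against RevDKO hepatocytes and 1 call in macrophages (0.26, limma adjusted p 0.0365). The Ncor1 call in RevScapTKO against Control macrophages gave 0 at a pseudocount of 5 (0.38, adjusted p 0.0546), with only the 2 genotypes compared (0.39, adjusted p 0.0618) and without the 3 libraries of highest hepatocyte sum. Leaving out single libraries gave 2 to 3 calls in RevScapTKO against RevDKO hepatocytes, 0 to 1 in macrophages of RevDKO or RevScapTKO against Control, and 0 to 1 time point calls in RevScapTKO against RevDKO or Control hepatocytes and RevDKO against Control macrophages (Hnf4a at ZT22 without Control ZT22 replicate 3). Rhythmic members with the series entered once numbered 1 in Control and 0 in ScapKO hepatocytes and 0 in RevScapTKO and ScapKO macrophages. By 24 h regression they numbered 1 in ScapKO hepatocytes and 0 in the other groups. Leaving out single libraries they ran from 1 to 3 in Control and RevDKO hepatocytes, 0 to 1 in RevScapTKO hepatocytes and Control macrophages, 3 to 4 in RevDKO, 0 to 2 in RevScapTKO and 0 to 4 in ScapKO macrophages, and 1 to 4 in ScapKO hepatocytes. Differences that reversed, none of them called, were with the macrophage score Hdac3 (-0.13), Onecut1 (0.79) and Prox1 (-0.090) against RevDKO and Rora (0.036), Hdac3 (-0.017), Onecut1 (0.25), Hnf4a (0.10) and Prox1 (-0.21) against Control in RevScapTKO hepatocytes; with a hepatocyte score Hnf4a (0.10) in RevScapTKO against RevDKO macrophages; and without the 3 libraries Onecut1 (-0.13) in RevDKO against Control and Prox1 (-0.063) in RevScapTKO against RevDKO macrophages. Without single libraries, in hepatocytes, Hdac3 ran from -0.030 to 0.085 and Onecut1 from -0.34 to 0.20 in RevScapTKO against RevDKO, and Hnf4a from -0.050 to 0.041 and Prox1 from -0.049 to 0.059 against Control. In macrophages Hdac3 ran from -0.079 to 0.41 and Onecut1 from -0.30 to 0.41 in RevDKO against Control, and Hdac3 from -0.23 to 0.26, Hnf4a from -0.16 to 0.10 and Prox1 from -0.063 to 0.19 in RevScapTKO against RevDKO. The correlation of deviations of libraries with the same replicate number ran from -0.14 to 0.28 in hepatocytes and from -0.20 to 0.37 in macrophages and was over 0.1 in 13 and 15 of 36 pairs, so not in every pair, and the numbers were not taken as a pairing. As a hint from the data, in 22 and 20 of 36 pairs the library was closest to its own number. With a replicate block the members called stayed at 0, 2 and 1 in hepatocytes and 0, 0 and 1 in macrophages, while calls over all genes in macrophages went from 80 to 167 in RevDKO and from 524 to 836 in RevScapTKO against Control. In RevDKO against Control macrophages they were 49 at a pseudocount of 0.1, 41 without a filter and 50 without the 3 libraries, and 944 in RevScapTKO against Control with the hepatocyte score. No paired analysis was possible for the rhythm calls because each comes from a rank test within 1 genotype. Depth is unknown, and levels of Onecut1 and of macrophage Hdac3 near 5 RPKTM or below in single libraries limit what those genes can show.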
